A study of Mus musculus with 9 samples.

Results

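The Ifi200 family is a cluster of interferon-inducible genes on mouse chromosome 1, and the 10 members described here are Mndal, Ifi203, Ifi204, Ifi206, Ifi207, Ifi208, Ifi209, Ifi211, Ifi213 and Aim2. They were found by gene name among the 55536 genes of the deposited count table, and 9 of them were among the 12849 genes that passed the filter on low counts. Ifi207 did not pass it. They were chosen from results of the p52Ki and WT contrast (their levels and fold changes in these libraries), so the differences between genotypes are a description from which no test is read. The libraries were made from RNA of mouse spleen B cells labelled pre-GC, a name for cells that have yet to enter germinal centres, the structures in which B cells multiply and diversify their antibodies. 4 libraries were WT and 5 were p52Ki, titled p52ki/ki, a homozygous knock-in of p52, the NF-kB subunit encoded by Nfkb2. The sources used here do not give strain, age, immunisation, the cell sort or the making of the knock-in. Nor do they say whether each library is a separate mouse, so the p-values reflect only the spread among these libraries, which may be technical.

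Proteins of the Ifi200 family, called PYHIN proteins, typically join a pyrin domain, through which proteins bind one another, to a HIN domain, which binds DNA. Aim2 binds double-stranded DNA in the cytosol and assembles the inflammasome with the adaptor ASC (gene Pycard) and caspase-1 (gene Casp1), while several other members act in the nucleus or in the induction of interferon. Many of these genes are switched on by type I interferon through factors that include STAT2 and IRF9 and bind the interferon-stimulated response element (ISRE) in promoters.

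On GRCm38 with GENCODE M21 the 10 protein-coding members lay on chromosome 1 from 173350879 to 173942672, a stretch of 591.8 kb, with 7 on the minus strand and 3 on the plus strand. Of 26 protein-coding genes outside the family within 500 kb of either end, 19 were olfactory receptor genes, 25 had 0 counts in all 9 libraries and none passed the filter. The annotated span of Mndal (173849126 to 173942491) holds that of Ifi211 (173896345 to 173913046), and Mndal and Ifi203 share 37 exonic bases on the same strand. The RefSeq promoters of Mndal used below lie inside that span, between 173879909 and 173880437, and do not reach Ifi211. The nesting and the overlap with Ifi203 therefore depend on the annotation. The RefSeq promoter of Aim2 (173420354 to 173420653) likewise lies inside its annotated span (173350879 to 173466040). The length of the stretch therefore depends on the annotation too.

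The promoter sequences are shown because they differ among members in a 10-base element. RefSeq promoters on GRCm38.p6, mostly upstream of a start, were matched by symbol for 9 of the 10 members, and Ifi204 was not matched. They were searched on both strands for the ISRE core, written GAAA, any 2 bases, GAAA. It was present in at least 1 promoter of 7 of the 9 members, against 3.44% of the 32851 promoters of that length and 3.99% of 27025 genes. The windows below run 5′ to 3′ on the gene's strand, with the element in capitals. Mndal and Ifi203 each have 2 listed starts. The last line is Ifi209, whose bases are those aligned with the Ifi214 element.
Ifi206 (chr1:173491335-173491372, minus strand): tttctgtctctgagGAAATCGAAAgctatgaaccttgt
Ifi213 (chr1:173599322-173599359, minus strand): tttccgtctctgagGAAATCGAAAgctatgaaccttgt
Ifi208 (chr1:173673593-173673630, plus strand): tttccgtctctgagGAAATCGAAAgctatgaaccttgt
Mndal, upstream start (chr1:173880200-173880237, minus strand): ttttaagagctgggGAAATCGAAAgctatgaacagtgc
Ifi203, downstream start (chr1:173942504-173942541, minus strand): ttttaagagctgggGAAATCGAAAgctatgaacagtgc
Ifi211 (chr1:173913060-173913097, minus strand): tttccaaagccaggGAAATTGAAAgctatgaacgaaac
Ifi207 (chr1:173741827-173741864, minus strand): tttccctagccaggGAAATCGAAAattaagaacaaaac
Ifi214 (chr1:173536013-173536050, minus strand): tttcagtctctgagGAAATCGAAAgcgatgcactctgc
Ifi209 (chr1:173630766-173630803, plus strand): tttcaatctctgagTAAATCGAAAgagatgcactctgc
The Ifi206, Ifi213, Ifi208, Ifi207, Mndal, Ifi203 and Ifi214 windows carry GAAATCGAAA and Ifi211 carries GAAATTGAAA. Ifi209 holds TAAATCGAAA in its place, a difference of G1T, counted from 1 at the element's 5′ end, and neither Ifi209 nor Aim2 had a match anywhere in the promoter. No match says only that these letters were not in this window. For Aim2 the window lies inside the annotated span, and the GENCODE start was not searched. A loose NF-kB site, GGG, any 5 bases, CC, was in promoters of 3 of the 9 members (Ifi209, Mndal and Ifi203). The background was 50.8% of all promoters and 53.5% of genes. An ETS site, CGGAAG, was in 1 of the 9 (Aim2), against 16.9% of all promoters and 18.8% of genes.

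Several of these promoters are near copies, so their matches are not separate observations. Over aligned columns, Ifi209 and Ifi214 were 95.3% identical, Mndal (upstream start) and Ifi203 (downstream start) 90.7%, Ifi213 and Ifi208 89.5%, Ifi206 and Ifi208 87.5%, and Ifi207 and Ifi211 85.9%. The whole promoters of Ifi209, the member of highest level, of its near copy Ifi214, and of Ifi211, the member of largest fitted fold change, are given for comparison, with the matched element in capitals and Ifi209 in lower case throughout.
Ifi214 (chr1:173535908-173536207, minus strand): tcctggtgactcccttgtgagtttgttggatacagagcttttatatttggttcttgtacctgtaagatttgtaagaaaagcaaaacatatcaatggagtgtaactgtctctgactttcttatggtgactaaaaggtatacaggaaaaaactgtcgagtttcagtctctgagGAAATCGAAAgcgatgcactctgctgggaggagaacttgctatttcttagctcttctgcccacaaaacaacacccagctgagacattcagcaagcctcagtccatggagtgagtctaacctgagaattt
Ifi209 (chr1:173630609-173630908, plus strand): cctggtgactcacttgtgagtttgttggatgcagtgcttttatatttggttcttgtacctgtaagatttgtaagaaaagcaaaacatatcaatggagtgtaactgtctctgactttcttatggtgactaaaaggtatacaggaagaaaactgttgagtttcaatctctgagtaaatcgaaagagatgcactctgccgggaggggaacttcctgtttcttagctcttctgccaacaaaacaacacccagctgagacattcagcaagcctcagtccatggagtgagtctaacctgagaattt
Ifi211 (chr1:173912997-173913296, minus strand): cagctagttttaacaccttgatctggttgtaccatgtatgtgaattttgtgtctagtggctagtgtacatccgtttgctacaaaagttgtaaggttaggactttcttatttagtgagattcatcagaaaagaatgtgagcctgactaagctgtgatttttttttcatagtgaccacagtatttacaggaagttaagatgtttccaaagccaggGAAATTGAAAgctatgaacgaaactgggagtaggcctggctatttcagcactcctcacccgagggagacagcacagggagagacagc

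Levels are CPM, read counts scaled to each library's TMM-adjusted total. WT libraries held 7368604 to 7937579 counts and p52Ki libraries 4492160 to 6647650, with 14033 to 14793 genes detected in WT and 15504 to 16634 in p52Ki. The 8 B cell markers summed to 10803 to 11881 CPM in WT and 12105 to 15758 CPM in p52Ki. Germinal centre B cell markers summed to 2754 to 3520 CPM in WT and 733 to 1649 CPM in p52Ki, and resting follicular B cell markers to 592 to 819 CPM in WT and 1307 to 1942 CPM in p52Ki. Plasma cell markers summed to 1436 to 1894 CPM in WT and 674 to 1256 CPM in p52Ki, and dendritic cell markers to 46.1 to 74.9 and 18.4 to 41.2 CPM. The genotypes did not overlap in any of these 5 sums, though single markers went against them. Mean CPM in WT and p52Ki was 914 and 856 for Blnk (B cell) and 428 and 357 for Fcer2a (follicular). The plasma sum was mostly Jchain (1252 and 562) and Xbp1 (373 and 315). Sdc1 (1.21 and 22.0), Prdm1 (7.40 and 8.18) and Tnfrsf17 (0 and 0.06) were higher in p52Ki. The dendritic sum was mostly Flt3 (58.5 and 21.6), and Siglech, Itgax, Clec9a and Ccr9 were higher in p52Ki, at up to 3.09 CPM. Macrophage markers overlapped, at 56.8 to 206 and 116 to 252 CPM. Their single means went both ways: Lyz2 (7.52 and 28.5 CPM) and Spic (2.46 and 7.31 CPM) were among those higher in p52Ki, and C1qb, C1qc and Vcam1 were lower. Neutrophil and monocyte markers summed to 0 to 6.37 and 8.88 to 37.6 CPM, nearly all of it Ly6c2 (3.53 and 26.4 CPM), with S100a8, S100a9, Camp, Ngp, Elane and Mpo at 0 in all 9 libraries and Ly6g at 0.83 and 0 CPM. The part of these shifts in the differences below was not tested. In bulk RNA, fewer cells of a type and less RNA per cell cannot be told apart.

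**Figure D1:**
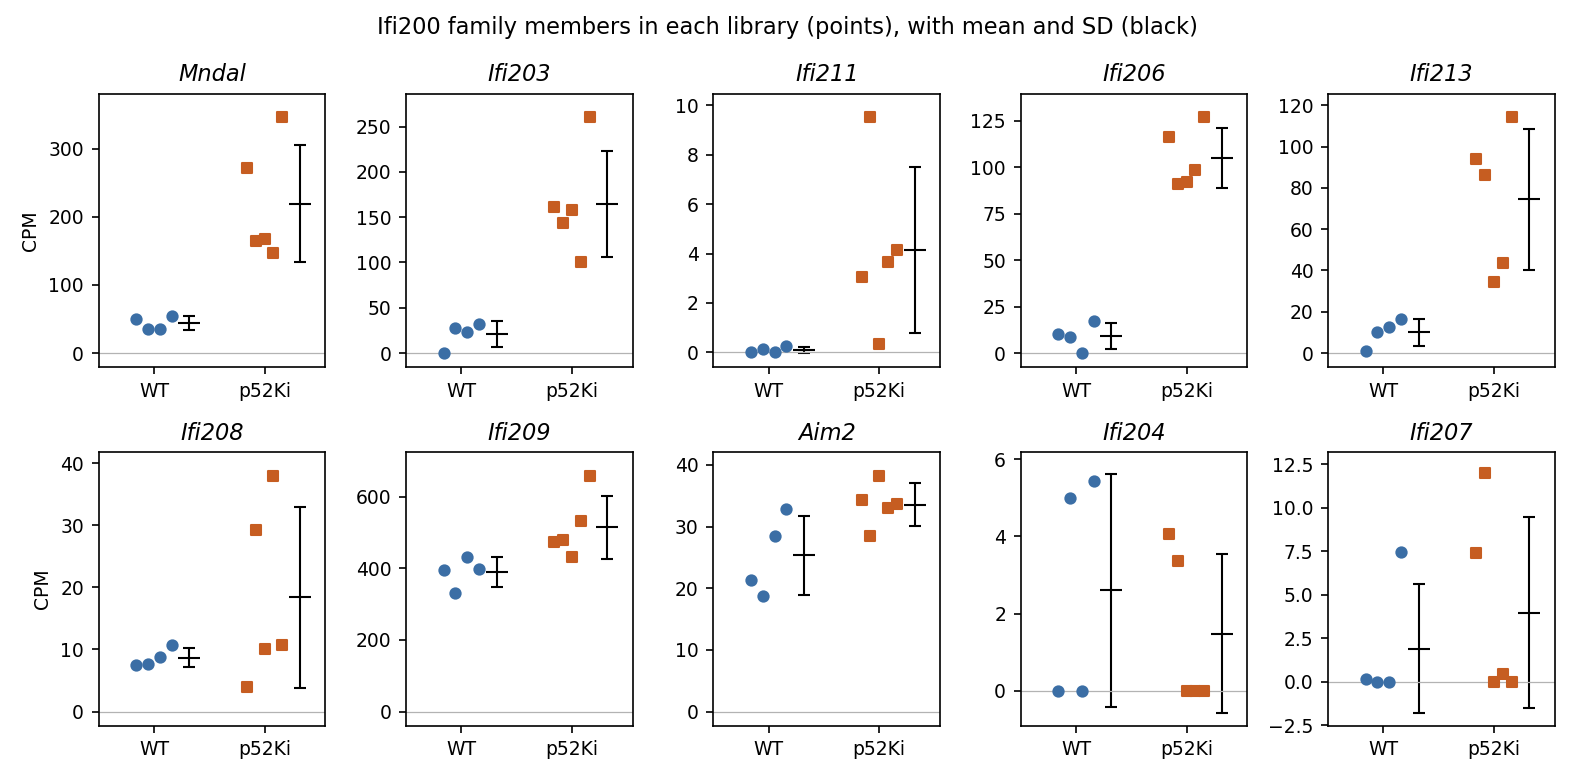
CPM of each of the 10 members (1 panel each, y axis in CPM on a linear scale) in the 4 WT (circles) and 5 p52Ki (squares) libraries, with mean and SD in black. In the panels of Mndal, Ifi203, Ifi211, Ifi206 and Ifi213 every p52Ki library lies above every WT library, and in the other 5 the genotypes overlap. For Ifi211 the lowest p52Ki and the highest WT library hold 2 counts each.

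Of the 9 members tested, 5 (Mndal, Ifi203, Ifi206, Ifi211 and Ifi213) had an edgeR quasi-likelihood adjusted p under 0.05, all higher in p52Ki, and none was lower, also with DESeq2 and limma and at an unadjusted p under 0.05 (6 higher, 0 lower). The background over the 12849 genes was 8.53% called in either direction, 4.49% higher and 4.04% lower. In 5 members every p52Ki library lay above every WT library, against 7.3% of all genes tested. For Ifi211, p52Ki replicate 3 and WT replicate 4 held 2 counts each (0.323 and 0.265 CPM), parted only by the scaling of the libraries. The median log2 fold change of the 9 was 2.32, against 0.03 for all genes tested. Ifi211, with 3 WT counts in all, passed the filter on low counts through p52Ki libraries alone, so it could be called only as higher. These counts describe how the members were chosen and nothing is read from them. The number called was 3 without WT replicate 2, 3 or 4, or without p52Ki replicate 1, 2 or 5.

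Mndal and Ifi203, whose annotated spans overlap, encode nuclear HIN-domain proteins. In replicate order, Mndal measured 50.3, 35.6, 34.7 and 54.7 CPM in the WT libraries, and 271, 165, 167, 147 and 347 CPM in the p52Ki libraries. The lowest p52Ki library lay above the highest WT library, and the means were 43.8 ± 10.2 (SD, n = 4) and 219 ± 86.3 CPM (SD, n = 5), a log2 fold change of 2.32 ± 0.29 (SE). Mndal kept its call without each of the 9 libraries in turn.

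Ifi203 was measured at 0.131, 28.1, 23.2 and 32.5 CPM in WT and at 161, 143, 158, 100.4 and 260.5 CPM in p52Ki. WT replicate 1 held a single count, far under the other WT libraries, and all p52Ki libraries were above the WT libraries. The means were 20.98 ± 14.4 and 165 ± 58.8 CPM, a log2 fold change of 2.97 ± 0.75. Its call was lost in 7 of the 9 fits that left out 1 library, at adjusted p from 0.0543 to 0.0716, and stayed without WT replicate 1 and without p52Ki replicate 4.

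Ifi211, annotated inside the Mndal span, had 0, 1, 0 and 2 counts in WT and 21, 54, 2, 24 and 19 in p52Ki, or 0.323 to 9.52 CPM. p52Ki replicate 3 was close to the WT libraries. The pooled ratio was 39.4 with an exact 95% interval of 13.2 to 194, which pools the libraries and leaves out the spread among them. Reads carry no molecular identifiers and are not known to be separate molecules, so the interval covers the counting of reads at most. Its call was lost without each WT library and with no filter on low counts (adjusted p from 0.00229 to 0.127 over the alternatives), and without p52Ki replicate 1, 2, 4 or 5 it did not pass the filter. Of the words in its transcripts as long as 1 read (151 bases), 46.2% occur in transcripts of other genes, most of all Ifi205 (32.2%), so a count of Ifi211 alone is uncertain. For the other members the share was 9.14% for Ifi209 (all Ifi214), 6.71% for Ifi204 (all Ifi211), 5.65% for Ifi206, and from 0 to 1.56% for the rest. With 75-base words the shares were 63.6% for Ifi211, 23.1% for Ifi209, 17.6% for Ifi206, 13.2% for Ifi204, 11.8% for Ifi208, 11.1% for Mndal, 8.07% for Ifi213, 5.71% for Ifi203, 2.80% for Ifi207 and 0% for Aim2.

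The trio Ifi206, Ifi208 and Ifi213, whose promoters are near copies, differed in how far apart the genotypes lay. Ifi206 stood at 10.4, 8.44, 0 and 17.0 CPM in WT and at 116, 91.0, 92.2, 98.4 and 127 CPM in p52Ki. WT replicate 3 held 0 counts, which allows up to 0.427 CPM at a floor of 3 counts. The means were 8.95 ± 7.0 and 105 ± 15.99 CPM, a log2 fold change of 3.55 ± 0.73, and this was the tightest of the 5 called members across the p52Ki libraries, with a coefficient of variation of 15.2%. Ifi213 was at 0.788, 10.2, 12.4 and 16.5 CPM in WT and at 93.8, 86.4, 34.4, 43.7 and 114 CPM in p52Ki, means of 9.96 ± 6.64 and 74.5 ± 34.1 CPM and a log2 fold change of 2.90 ± 0.65. WT replicate 1, low for Ifi203, was also the lowest for Ifi213. Ifi208 was at 7.48, 7.61, 8.82 and 10.8 CPM in WT and at 3.92, 29.3, 10.01, 38.0 and 10.6 CPM in p52Ki. The genotypes overlapped for Ifi208, only p52Ki replicates 2 and 4 lying above every WT library, and its log2 fold change was 1.08 ± 0.61, not past the threshold.

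Of the 9 members with a promoter sequence, Ifi209 and Aim2 were the 2 without an ISRE core match. Ifi209, the most abundant member, stood at 395, 332, 431 and 399 CPM in WT and at 474, 478, 431, 532 and 659 CPM in p52Ki. p52Ki replicate 3 lay within the WT range and the other 4 above it. The means were 389 ± 41.6 and 515 ± 88.3 CPM, a log2 fold change of 0.40 ± 0.15 that did not pass the threshold with edgeR (adjusted p = 0.124) and did with DESeq2 (adjusted p = 0.0401, over a range of 0.0401 to 0.322 across the alternatives). Aim2, the inflammasome sensor, was at 21.4, 18.8, 28.4 and 32.8 CPM in WT and at 34.3, 28.4, 38.3, 33.1 and 33.7 CPM in p52Ki. The genotypes overlapped in p52Ki replicate 2 alone, and the means were 25.4 ± 6.41 and 33.5 ± 3.52 CPM, a log2 fold change of 0.40 ± 0.27 that was not called.

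Ifi204 and Ifi207 were detected in few libraries. Ifi204 had 0, 36, 0 and 41 counts in WT and 28, 19, 0, 0 and 0 in p52Ki. The fitted difference, -0.80 ± 1.76 in log2, was not called. Ifi207 had 1, 0, 0 and 56 counts in WT and 51, 68, 0, 3 and 0 in p52Ki and was not tested. For each, the libraries with counts were spread over both genotypes.

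**Figure D2:**
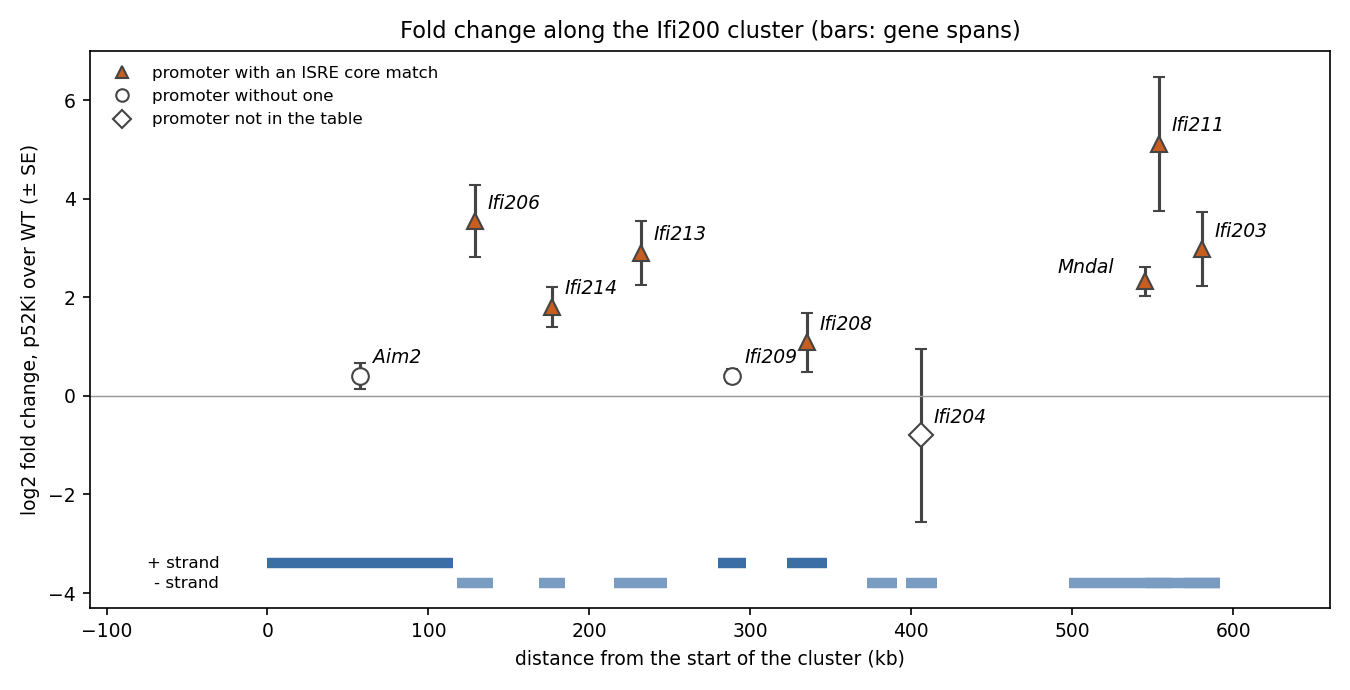
Log2 fold change (p52Ki over WT, ± SE) of the 9 members tested and of Ifi214 against distance from the start of the cluster in kb, with gene spans as bars by strand at the bottom. Triangles are genes with an ISRE core match in a promoter, and the open circles at 0.40 are Aim2 and Ifi209, which had none. The open diamond at -0.80 is Ifi204, which has no promoter sequence here. Ifi207, which has a match, was not tested and has no point.

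Members with a promoter match that were tested had log2 fold changes from 1.08 (Ifi208, not called) to 5.11 (Ifi211, a fitted value that rests on 3 WT counts). Ifi207 also has a match but was not tested. Its counts overlapped between the genotypes (1, 0, 0 and 56 in WT and 51, 68, 0, 3 and 0 in p52Ki). The 2 without one had 0.40 each, and Ifi204, which has no promoter sequence here, had -0.80. For Ifi203 the match was at the downstream start and not at the upstream one. This is a description over near copies, with no test.

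On a per-length scale, mean CPM per kb of exon in WT was 109.8 ± 11.7 for Ifi209, 12.1 ± 2.81 for Mndal, 7.24 ± 1.83 for Aim2, 3.13 ± 2.15 for Ifi203, 2.93 ± 2.29 for Ifi206, 1.65 ± 0.29 for Ifi208, 1.46 ± 0.97 for Ifi213, 0.73 ± 0.85 for Ifi204, 0.55 ± 1.08 for Ifi207 and 0.06 ± 0.07 for Ifi211. In p52Ki it was 145 ± 24.9 for Ifi209, 60.5 ± 23.8 for Mndal, 34.4 ± 5.24 for Ifi206, 24.6 ± 8.77 for Ifi203, 10.9 ± 4.99 for Ifi213 and 9.58 ± 1.01 for Aim2. Ifi208 (3.49 ± 2.76), Ifi211 (2.32 ± 1.88), Ifi207 (1.16 ± 1.601) and Ifi204 (0.42 ± 0.57) came last. In WT, every pair of neighbours in this order from Ifi203 down to Ifi211 lay closer than the larger of their SDs. In p52Ki the same held for Ifi213 with Aim2 and for each neighbouring pair among the last 4.

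**Figure D3:**
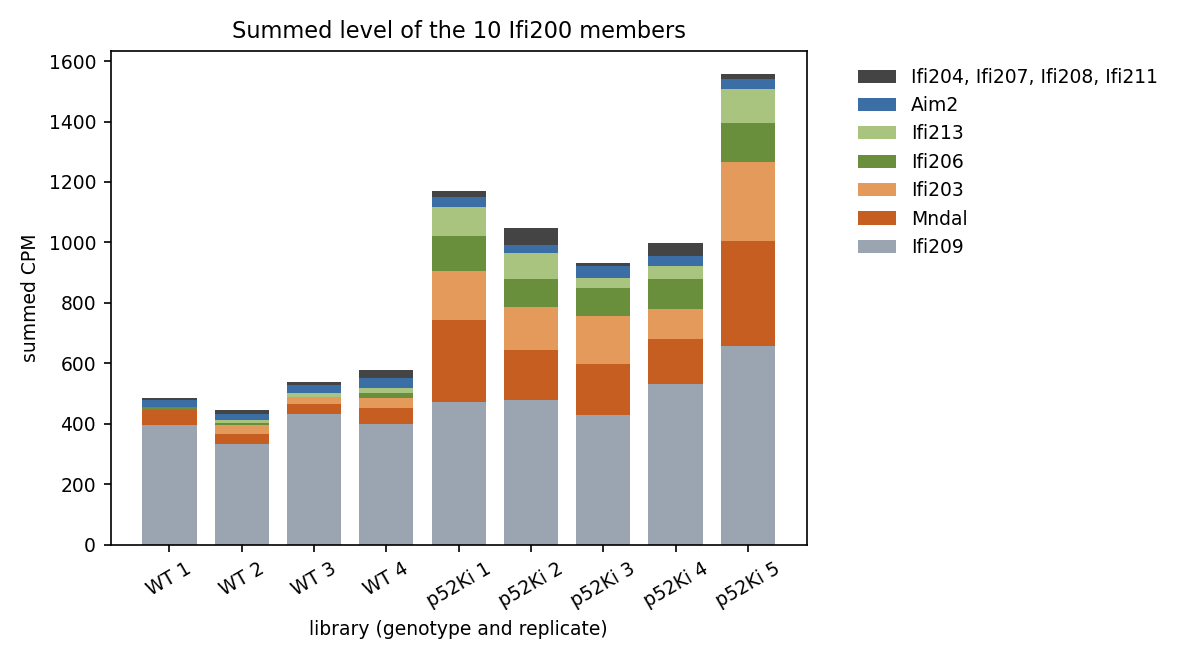
Stacked CPM of the 10 members in each of the 9 libraries (y axis summed CPM from 0). The 4 WT bars reach 446 to 577 CPM and the 5 p52Ki bars 931 to 1556 CPM, and the grey Ifi209 part makes up most of each WT bar.

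Since near copies can exchange reads, the members were also summed. The sum leaves out Ifi214 and Ifi205, with which Ifi209 and Ifi211 share sequence, so it covers only exchange among the members. The sum was 485, 446, 539 and 577 CPM in WT and 1169, 1047, 931, 997 and 1556 CPM in p52Ki, with 15054 and 33423 counts in all. Every p52Ki library was above the WT libraries, and the log2 ratio of the means (512 ± 57.7 and 1140.0 ± 248.5 CPM) was 1.16. Without Ifi209 the sums were 122 ± 38.0 and 625 ± 176 CPM, a log2 ratio of 2.35. Ifi209 made up 76.3% ± 5.56 (SD, n = 4) of the members' summed counts in WT and 45.6% ± 4.92 (SD, n = 5) in p52Ki. Mndal made up 8.56% ± 1.73 and 18.8% ± 3.79, Ifi203 4.07% ± 2.82 and 14.3% ± 2.82, Ifi206 1.74% ± 1.25 and 9.32% ± 0.83, and Ifi213 1.90% ± 1.19 and 6.34% ± 2.14. Mndal with Ifi203 summed to 64.8 ± 15.9 and 384 ± 141 CPM, Ifi206 with Ifi208 and Ifi213 to 27.6 ± 11.5 and 198 ± 42.9 CPM, and Ifi204 with Ifi207 to 4.50 ± 6.05 and 5.45 ± 7.39 CPM.

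Of the rest of the family, Ifi214, next to Ifi206 at chromosome 1 173519717 to 173535957, was the 1 gene tested. It was at 4.99, 12.6, 21.2 and 21.1 CPM in WT and 47.2, 42.1, 41.5, 57.6 and 73.9 CPM in p52Ki. Its log2 fold change was 1.81 ± 0.41 (edgeR adjusted p = 0.0197), and without WT replicate 2 its adjusted p was 0.0513. Ifi205 had 0 counts in WT and 5, 6, 0, 4 and 1 in p52Ki (16 in all), at least 5.25-fold higher. Ifi203-ps, a pseudogene, had 0 and 14, at least 4.59-fold higher. Both bounds take the floor of 3 counts over the group and leave out the spread among libraries. Of the 151-base words of Ifi205, 12.6% occur in Ifi211 transcripts, so its count alone is uncertain. For Ifi203-ps, 1.16% of the 151-base words and 10.8% of the 75-base words occur in Ifi203 transcripts, so its few counts are uncertain too. Ifi202b was at 0 in all 9 libraries, which allows up to 0.102 CPM in WT and 0.100 CPM in p52Ki. Of 5 further names on the list with no row, 4 are older names of members in RefSeq.

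Of 30 listed genes that sense DNA or carry the inflammasome, 24 were tested, 2 rose and 3 fell in p52Ki (background 4.49% higher and 4.04% lower), with a median log2 fold change of 0.24. Unc93b1, which carries nucleic acid-sensing Toll-like receptors to endosomes, averaged 888 ± 96.9 CPM in WT and 1564 ± 89.9 CPM in p52Ki (0.82 ± 0.11 in log2, edgeR adjusted p = 0.00249), and Zbp1, a sensor of Z-form nucleic acids, rose by 1.38 ± 0.30 on the log2 scale (adjusted p = 0.0169). Hmgb2 and Hmgb1, chromatin proteins that bind DNA, had log2 fold changes of -1.09 ± 0.24 (adjusted p = 0.0164) and -0.60 ± 0.14 (adjusted p = 0.0216). Hmgb1 lost its call in 5 of the 9 fits that left out 1 library, and Hmgb2 without WT replicate 4. Rnaseh2b, a subunit of an enzyme that removes RNA from DNA, was named after its value was seen and fell, with an edgeR adjusted p of 0.0250. The 5 calls became 3 without WT replicate 1 or p52Ki replicate 1 or 3, with 1 lower in each, 4 without WT replicate 3, again with 1 lower, and 2 without WT replicate 4, with 0 lower.

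Of Aim2's own partners, Pycard stood at 43.3 ± 14.9 and 83.2 ± 22.7 CPM (log2 fold change 0.94 ± 0.28, edgeR adjusted p = 0.0591, and from 0.0103 to 0.189 over the alternatives), Casp1 at 42.3 ± 20.0 and 51.2 ± 5.63 CPM (0.27 ± 0.32, adjusted p = 0.712) and Gsdmd, the pore-forming target of caspase-1, at 52.1 ± 18.4 and 84.7 ± 10.6 CPM (0.70 ± 0.26, adjusted p = 0.139). Tmem173 (STING, which relays the signal of the DNA sensor cGAS) was at 97.5 ± 25.0 and 96.0 ± 12.6 CPM, a log2 fold change of -0.02 ± 0.20 (edgeR adjusted p = 0.972). Its sign turned under DESeq2 size factors and 7 other settings. Cgas itself had 38 counts in WT and 4 in p52Ki, nearly all the WT counts falling in replicate 4 (4.91 CPM), and was not tested.

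Upstream of the family, the 20 receptor and relay genes for interferon were all tested, and 2 rose: Ifngr2 (log2 fold change 1.14 ± 0.26, edgeR adjusted p = 0.0195) and Ifnar1 (0.82 ± 0.22, adjusted p = 0.0397), chains of the type II and type I interferon receptors. These 2 of 20 stand beside 8.53% of all genes called in either direction, a share near the background. None fell by edgeR, DESeq2 or limma-trend, and at an unadjusted p under 0.05, 8 were higher and 1 lower. Without WT replicate 1 neither passed, and Ifnar1 lost its call in 8 of the 9 such fits. Irf9, a DNA-binding relay factor, did not pass with edgeR (0.93 ± 0.28, adjusted p = 0.0622) and did with DESeq2 (adjusted p from 0.0098 to 0.204 over the alternatives). Stat2 had a log2 fold change of 0.12 ± 0.22 (adjusted p = 0.824), which the replicate block brought to just under 0, and Irf7, the factor that amplifies interferon production, 0.68 ± 0.32 (adjusted p = 0.244).

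**Figure D4:**
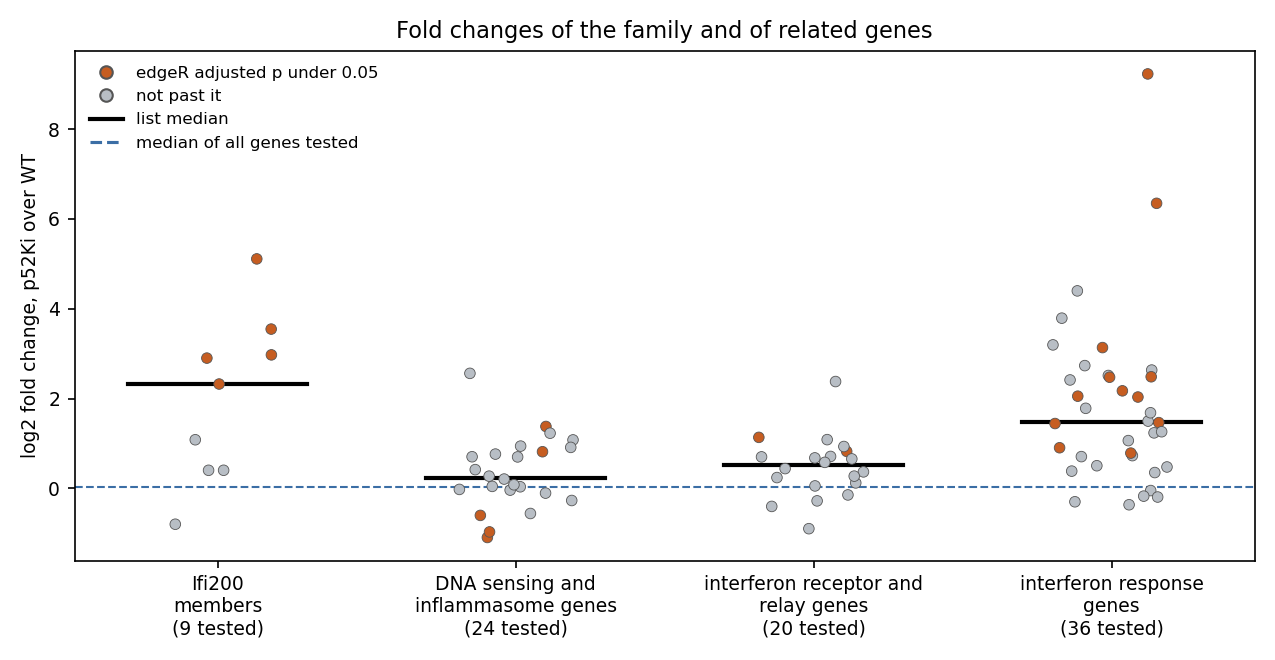
Log2 fold changes (y axis, p52Ki over WT) of the tested members and of the 3 related lists, with orange points past an edgeR adjusted p of 0.05, a bar at each list's median and a dashed line at the median of all genes. The list medians are 2.32 for the members, 0.24 for DNA sensing and inflammasome genes, 0.51 for receptor and relay genes and 1.48 for response genes.

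Of 39 listed interferon response genes 36 were tested, 12 rose and 0 fell by edgeR (background 4.49% higher and 4.04% lower). DESeq2 and limma-trend also called 0 lower. Among the genes that rose, Ifit1 (0 WT and 327 p52Ki counts) and Mx1 passed the filter on low counts through p52Ki libraries alone. Those 2 could be called only as higher. At an unadjusted edgeR p under 0.05, 22 were higher and 0 lower, against 1387 and 1363 of the 12849 genes tested. The list's median log2 fold change was 1.48, against 0.03 for all genes tested. Mx1, a GTPase that restricts viruses, had 8 WT counts, all in WT replicate 2, and 718 p52Ki counts (edgeR adjusted p = 0.0056). Oasl1, of the oligoadenylate synthetase family, rose by 2.03 ± 0.35 on the log2 scale (adjusted p = 0.0061). Trim30a stood at 59.9 ± 21.1 and 163 ± 17.7 CPM (1.44 ± 0.25, adjusted p = 0.00672), and Ly6e, a membrane-anchored surface protein, at 1303 ± 291 and 2440 ± 297 CPM (0.91 ± 0.16, adjusted p = 0.00672). These genes share the interferon label with the Ifi200 members but lie elsewhere in the genome.

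Among 36 pairs of tested members, correlations of deviations from the genotype means over the 9 libraries ran from -0.56 to 0.93 with a median of 0.15, and from -0.55 to 0.86 with a median of 0.20 without WT replicate 1, where Ifi203 and Ifi213 were low. Without that library Ifi203 with Ifi213, the highest pair, went from 0.93 to 0.61, while Mndal with Ifi203 went from -0.05 to 0.86 and Mndal with Ifi213 from 0.15 to 0.78, and 19 of the 36 pairs were higher. Of 12840 non-member genes, log2 CPM of Spef2 (Pearson 0.99), Igkv4-61 (0.98), B2m (0.98), Fbxw10 (0.98) and Cd72 (0.98) was most like the log2 summed member level over the 9 libraries, all of which share the genotype step. For deviations from the genotype means, genes among the 5 most alike were Sap18 (0.94), Ddx46 (0.94), 9130230N09Rik (0.93) and Lrrc45 (0.93), with points sharing library depth and composition.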

How the data were processed

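RNA of spleen pre-GC B cells from 4 WT and 5 p52Ki libraries was turned to full-length cDNA by a SMART-Seq method and cut into paired-end libraries with Nextera XT, per the labels' protocols. This chemistry does not mark strand. Per the submitters' processing notes, the tools were HISAT2 2.1.0, SAMtools 1.8, and featureCounts (Subread 1.6.2), on GRCm38. The sources used here do not say how reads mapping to several places were handled. The authors deposited unnormalized gene counts (55536 genes) and a table of log2 CPM values (12849 genes), which equalled edgeR's log CPM (TMM, prior count 2) to within 4.97e-14.

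The deposited counts were fitted in R 4.3.3 with edgeR 4.0.16 (filterByExpr, TMM, robust quasi-likelihood F test on all 9 libraries, no covariate, two-sided p adjusted by Benjamini-Hochberg over 12849 genes, threshold 0.05). Standard errors are the log2 fold change divided by the root of F. CPM uses TMM-scaled totals and is given as mean ± SD. Alternatives were DESeq2 1.42.0, limma 3.58.1 (limma-trend), DESeq2 size factors, other filters, the replicate number as a block, and each library left out. Same-numbered libraries of the 2 genotypes did not deviate together (correlations from -0.042 to -0.009), so numbers were not taken as pairs. The members and the gene lists were chosen with earlier results of these data known. From each related list up to 4 called genes of smallest p and set names (among them Irf7, Stat2, Irf9, Pycard, Casp1, Gsdmd, Cgas and Tmem173) were named, and the likeness lists hold the 5 highest. A few results that these rules name are not reported here. Promoters are RefSeq sequences on GRCm38.p6. Positions are from GENCODE M21, which holds 55450 of the 55536 identifiers.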

Additional observations from a re-analysis of the deposited data

Results flagged for a closer look

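Ifi207 in WT replicate 4 stood at 7.43 CPM, with the other 3 WT libraries between 0 and 0.131 CPM, so that the gap to its nearest neighbour took up 0.98 of the range of the group. It was the 1 such case in the 24 groups checked. Chance gives about 1 in 20 for independent, normally spread values, which counts near 0 are not.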

How the results depend on the processing

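The genes called over the whole table numbered 1096, 1766 with DESeq2, 625 (without p52Ki replicate 3) to 1108 with 1 library left out and 129 with the replicate block, whose numbers do not pair the libraries. Leaving out WT replicate 1 gave 714, WT replicate 4 gave 711, p52Ki replicate 1 gave 651 and p52Ki replicate 5 gave 716. With the replicate block the Ifi200 members called went from 5 to 1, the other family genes from 1 to 0, DNA sensing and inflammasome genes from 5 to 1, receptor and relay genes from 2 to 0 and response genes from 12 to 1. With 1 library left out these counts ran from 3 to 4, 0 to 1, 2 to 5, 0 to 2 and 10 to 15. DESeq2 called 8 DNA sensing and 6 relay genes, limma-trend 4 relay and 20 response genes, and a filter of 10 CPM in 4 libraries gave 6 relay genes. The log2 ratio of the summed level (1.16) was 2.35 without Ifi209 and 1.02 to 1.22 with 1 library left out. Mndal kept its call in all 15 alternatives, and Ifi206 and Ifi213 lost theirs with the replicate block alone (adjusted p = 0.0808 and 0.147). Stat2 turned to -0.0089 with the replicate block. Tmem173 turned to 0.0056 with DESeq2 size factors, 0.0138 with the 10 CPM filter, 0.0664 with the replicate block, 0.0058 with DESeq2, 0.0068 with limma-trend, and 0.004, 0.1386 and 0.0566 on leaving out WT replicate 2, WT replicate 3 and p52Ki replicate 5, in a range from -0.1561. The cause was not tested.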
